A study of Drosophila melanogaster with 6 samples.

Results

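The cytochrome P450 genes of Drosophila melanogaster were examined in the larval discs that give rise to the adult eye, antenna and head capsule. Members were all probe sets annotated to exactly 1 gene whose current symbol is Cyp followed by a number and a letter, as in Cyp4p2, so cyclophilin genes such as Cyp1 were not included. The rule took 85 probe sets of 81 genes, out of 13966 probe sets without controls that stood for 10844 named genes. Of the 85 symbols of this form in the gene table used for names, 81 had such a probe set, and the other 4 were 2 pseudogenes and 2 protein-coding genes, Cyp12d1-p and Cyp9f3. P450 genes that carry a name of their own, such as the ecdysone synthesis genes phtm, dib, sad, shd and spo, fall outside the rule and are described with the companion genes.

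Cytochrome P450 enzymes are haem proteins that insert an oxygen atom into small lipophilic molecules, with electrons passed on by a reductase or, in mitochondria, by a ferredoxin. In insects they fall into the CYP2, CYP3, CYP4 and mitochondrial clans. Some build or inactivate hormones such as ecdysone, some make cuticular hydrocarbons, and many of the CYP3 and CYP4 clans act on plant toxins, insecticides or fatty acids in gut, fat body and Malpighian tubule. The imaginal disc is not a tissue known for detoxification.

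RNA came from discs of wandering larvae of instar 3 raised at 25 °C, with 100 discs per sample, and each of 6 single-colour Affymetrix arrays gave 1 MAS5-type signal per probe set. In 3 samples the genotype was GMR Gal4/UAS RasV12 and in 3 it was GMR Gal4/+; UAS sSpi/+. The shared driver, GMR-Gal4, acts posterior to the furrow that sweeps across the eye disc, so antennal cells and cells ahead of the furrow were in the samples without being driven. RasV12 is an activated form of the GTPase Ras, and sSpi is the secreted form of Spitz, a ligand of the EGF receptor. All 6 samples expressed a transgene and no discs without one were analysed here, so every difference is RasV12 relative to sSpi. As the genotypes are written, UAS RasV12 lies on the homologue of the driver chromosome and UAS sSpi on another chromosome, so effects of the transgene and of the stock that carried it cannot be told apart. The description field of the sSpi samples names RasV12, whereas titles, sources and genotypes name sSpi, and samples were grouped by title.

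Median signals lay between 39.5 and 41.4 on the 6 arrays. Pearson's r of log2 signals over the tested probe sets was 0.961 to 0.983 within a genotype and 0.948 to 0.967 across genotypes, as a description of arrays that share their probe sets. RasV12 replicate 1 stood apart from the other 5 arrays on the second principal component, at 20.3 against -13.4 to 3.93, and sSpi replicate 2 was the most distant on the first, at -19.6. The results below that rest on these arrays are given without them where a call changed. Among markers of the labelled tissue, the retinal determination gene eya measured 655 to 859 on all 6 arrays. The photoreceptor transcription factor gene gl measured 285 to 334, and the eye disc marker dac 121 to 290. Such levels do not by themselves identify the tissue, because signals of different probe sets do not share a scale. Of the trachea markers, for example, verm measured 1002 to 1495 and btl 4.61 to 9.39. Among the 5 eye disc markers 1 passed the test described below, ey, with 277 ± 10.5 for RasV12 against 394 ± 39.1 for sSpi (limma adjusted p = 0.0483, n = 3). That call was lost in 12 of 16 other settings, among them the fit without the signal filter (limma adjusted p = 0.0695) and the replicate block (0.12), with adjusted p of 0.0382 to 0.21 over the 16.

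Most P450 probe sets had low signals. Of the 85, 46 had a mean signal under 10 over the 6 arrays, 28 stayed under 10 on every array, and 13 rose above 50 on at least 1 array. The test took the upper 60% of all probe sets by mean signal, from 23.4 upwards, and 21 P450 probe sets of 20 genes were among them. The other 64, or 75.3% of the family, lay below that filter, against 40% of all probe sets. The tested member nearest the filter was Cyp301a1, a mitochondrial P450 needed for adult cuticle formation, with a mean of 26.4, and the nearest one outside was Cyp6a17, at 23.2. Signals of different probe sets do not share a scale, so these values rank probe sets and not transcript levels.

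**Figure D1:**
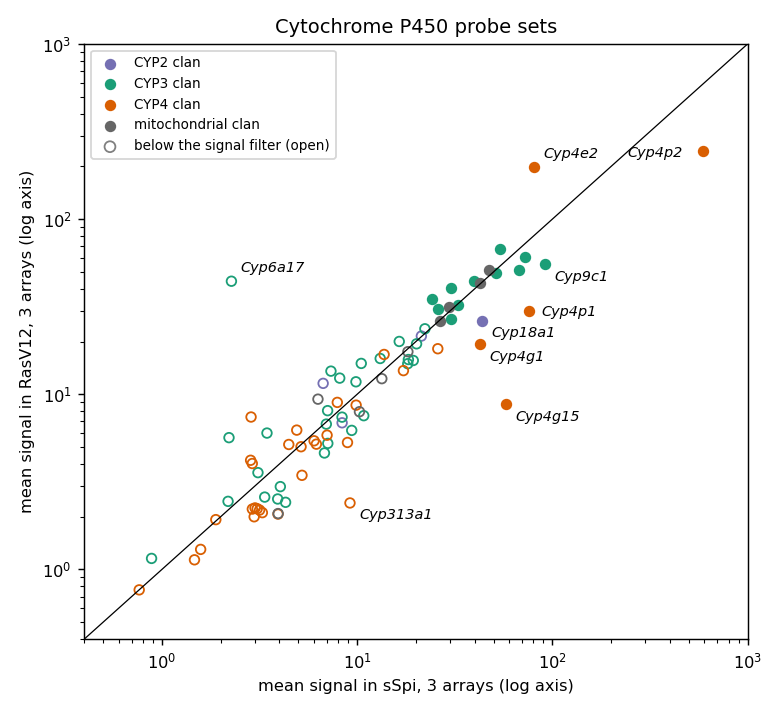
Mean signal of each of the 85 P450 probe sets in sSpi (horizontal axis) and RasV12 (vertical axis), both log axes, n = 3 arrays each, coloured by clan. Filled points were tested, open points lay below the signal filter, and the line marks equal signals. Cyp4e2 and the untested Cyp6a17 lie far above the line, and Cyp4p2, Cyp4p1 and Cyp4g15 below it.

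Of the 21 P450 probe sets tested, 1 was higher and 3 were lower in RasV12 at an adjusted p under 0.05 (limma, log2(signal + 16), two-sided, adjusted over all 8380 probe sets tested). That is 19% of them, while the share called among all probe sets tested was 2.61%, with 1.3% higher and 1.31% lower. All 4 belong to the Cyp4 family, Cyp4e2 on the higher side and Cyp4p2, Cyp4p1 and Cyp4g15 on the lower. Cyp4g15 passed the signal filter, which began at 23.4, only through its sSpi arrays, with means of 8.74 in RasV12 and 58.0 in sSpi. The share called therefore depends on the filter, and the share without it is given with Cyp6a17 below. The groups of 3 arrays did not overlap for 8 of the 21 members, 3 higher and 5 lower in RasV12, or 38.1%, against 21.3% of all probe sets tested. The median difference of the 21 was a log2 value of -0.02, beside -0.01 over all probe sets tested, and the median size of the difference, whatever its sign, was 0.26 against 0.14. An unadjusted p under 0.05 was found for 8 of the 21 members, beside 15.2% of all probe sets tested.

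Cyp4p2 (CG1944), the member with the highest mean signal, was lower in RasV12. Its probe set measured 252, 247 and 231 in RasV12 replicates 1 to 3 and 520, 564 and 688 in sSpi replicates 1 to 3. The RasV12 arrays lay close together and every one of them was below the lowest sSpi array. Means were 243 ± 10.9 for RasV12 against 591 ± 87.5 for sSpi (SD, n = 3). On the log2(signal + 16) scale RasV12 minus sSpi came to -1.22 ± 0.12 (SE, limma adjusted p = 0.0012), or 2.32-fold higher in sSpi. Log2 differences and folds below are on this scale unless another pseudocount is named, so a fold differs from the ratio of mean signals. The call held in 16 of 16 other settings, which changed the processing or left out arrays.

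Cyp4p1 (CG10842), which lies next to Cyp4p2 in the gene order, was also lower in RasV12. The signal was 41.8, 22.4 and 25.6 in RasV12 and 77.8, 69.2 and 79.9 in sSpi. The groups did not overlap, and RasV12 replicate 1 was the highest of its group. RasV12 minus sSpi was -1.02 ± 0.17 in log2 (SE, limma adjusted p = 0.0145, n = 3), or 2.02-fold higher in sSpi. This call was the least firm of the 4. It was lost without RasV12 replicate 2 (limma adjusted p = 0.0629), without sSpi replicate 1 (0.0693), 2 (0.057) or 3 (0.0637), and without the signal filter (0.0554), and without RasV12 replicate 1 the difference was -1.19, with an adjusted p of 0.0026.

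Cyp4g15 (CG11715) belongs with Cyp4g1 to the Cyp4g subfamily and is known to be transcribed in the larval central nervous system. Its signal was 7.79, 5.60 and 12.8 in RasV12 and 57.6, 55.1 and 61.3 in sSpi. The sSpi arrays agreed closely and the RasV12 arrays were all far lower. The lower quartile of all probe sets lay at 7.95 to 8.82 on the 6 arrays, and 2 of the 3 RasV12 values were below that line. The drop of RasV12 against sSpi, -1.59 ± 0.16 in log2 (SE, limma adjusted p = 0.0012, n = 3), corresponds to 3.01-fold higher signal in sSpi on the log2(signal + 16) scale. Because the RasV12 signals are so low, its size follows the pseudocount, from -0.75 with 64 to -2.67 with 1, while the call held in 15 of 15 other settings.

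Of the markers of glia, cells that enter the eye disc from the brain, 1 of 4 tested was called lower in RasV12 and none higher. The summed signal of the 5 with a probe set lay between 945 and 1054 in RasV12 and between 1439 and 1533 in sSpi, and most of it came from the septate junction gene Gli, the marker that passed (738 ± 43.0 against 1189 ± 39.8, limma adjusted p = 0.0051). The glial transcription factor gene repo measured 94.9, 88.7 and 115 in RasV12 and 136, 100 and 143 in sSpi, so its groups overlapped. The receptor gene moody was lower on every RasV12 array, at 57.4 ± 18.2 against 93.2 ± 10.9, and did not pass (limma adjusted p = 0.13). The pump subunit gene nrv2 was higher on every RasV12 array, at 99.3 ± 9.68 against 62.9 ± 22.0, and did not pass (limma adjusted p = 0.18). No marker of the list was at 0. Among 6 hemocyte markers, NimC1 lay below the filter and was lower in RasV12 in the fit without it, at 4.64 ± 1.76 against 21.5 ± 3.99 (limma adjusted p = 0.0256, lost in 8 of 13 further settings, 0.0231 to 0.12), while the summed signal of that list overlapped, at 274 to 431 and 258 to 405. The part of these cells in the Cyp4g15 difference was not tested, and in a sample of whole discs fewer cells of a type and less RNA per cell cannot be told apart.

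Its paralogue Cyp4g1, the oxidative decarbonylase that makes cuticular hydrocarbons in oenocytes, was also tested. The signals were 1.84, 35.4 and 20.5 in RasV12 and 37.4, 59.9 and 30.5 in sSpi. RasV12 replicate 1 was far below its group, and the 35.4 of replicate 2 lay above the lowest sSpi value, so the groups overlapped. The log2 difference of -0.83 ± 0.35 did not pass (limma adjusted p = 0.30, n = 3). Without RasV12 replicate 1 it was -0.40, and without RasV12 replicate 1 and sSpi replicate 2 it was -0.20. The other oenocyte markers with a probe set lay below the filter, FarO at 3.82 to 9.07 and spidey at 13.4 to 38.4 over the 6 arrays. Their groups overlapped, and their log2 differences without the filter, 0.11 and 0.42, were opposite in sign to that of Cyp4g1.

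Cyp4e2 (CG2060) was the 1 tested P450 gene called higher in RasV12. Its probe set gave 161, 195 and 243 in RasV12 and 82.1, 88.8 and 71.8 in sSpi. The lowest RasV12 array was well above the highest sSpi array, and the RasV12 arrays were more spread than the sSpi arrays. Means were 199.6 ± 41.7 and 80.9 ± 8.59 (SD, n = 3), and RasV12 was higher by 1.14 ± 0.15 in log2 (SE, limma adjusted p = 0.0047), or 2.20-fold. The call held in 16 of 16 other settings, with differences from 0.85 to 1.33.

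Cyp6a17 (CG10241), a CYP3 clan gene needed in the fly brain for normal temperature preference, also split by genotype, but its mean over all 6 arrays put it just under the filter. It was therefore examined in the fit without a filter, over 13966 probe sets. The signal was 42.8, 43.9 and 45.9 in RasV12 and 0.518, 4.12 and 2.18 in sSpi. The RasV12 values stood at percentiles 50.7 to 52.8 of their arrays, while the sSpi arrays were all under the lower quartile of their arrays. The log2 difference was 1.72 ± 0.13 (SE, limma adjusted p = 0.0047, n = 3) without the filter, and ranged from 0.71 with a pseudocount of 64 to 3.96 with 1. It stayed past the threshold in 13 of 13 further settings without the filter, chosen after the data were seen, at adjusted p of 0.0044 to 0.0386. The fit without the filter called 4 of the 85 P450 probe sets, Cyp4e2 and Cyp6a17 higher and Cyp4p2 and Cyp4g15 lower, or 4.71%, against 0.988% of all 13966 probe sets (0.501% higher, 0.487% lower). An unadjusted p under 0.05 was found there for 11 of the 85, beside 11.9% of all probe sets.

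**Figure D2:**
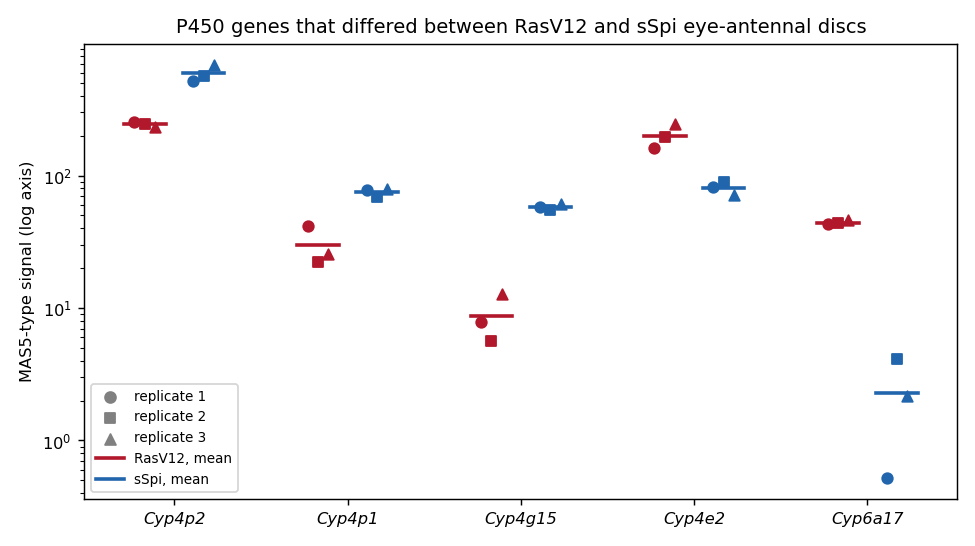
Signal on each array (log axis) of the 4 P450 genes that passed and of Cyp6a17, which passed in the fit without a signal filter. Points are single arrays, their shape gives the replicate number, and bars mark the means of 3 arrays. In none of the 5 genes do the RasV12 and sSpi arrays overlap.

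The 4 called genes and Cyp6a17 were set beside their neighbours on the chromosome. By gene order in the reference annotation, 41 of the 81 P450 genes sit in 14 runs of 2 to 9 adjacent members, with no other protein-coding gene between them. Cyp4p2, Cyp4p1 and Cyp4p3 form 1 run. Cyp4p3 gave only 2.67, 2.30 and 1.67 in RasV12 and 3.53, 1.43 and 3.75 in sSpi, too low on every array to show a difference. Outside the run, the synaptic matrix gene hig (7.10 to 9.35 in RasV12, 12.1 to 12.7 in sSpi) and the kinase gene Pkn (205 to 233, and 251 to 298) also had every RasV12 array below every sSpi array, and neither passed, at limma adjusted p of 0.38 and 0.27 without the filter. VhaAC45, a proton pump subunit gene on the same side as hig, measured 269 ± 5.09 and 255 ± 36.4.

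Cyp4e2 lies between Cyp4ad1 and Cyp4e1. Cyp4ad1 measured 2.76 to 4.33 in RasV12 and 3.70 to 8.02 in sSpi, and Cyp4e1 measured 0.67 to 2.95 and 1.30 to 6.19. The groups of both neighbours overlapped, and their differences without the filter were -0.12 ± 0.09 and -0.07 ± 0.11. Both were under the lower quartile on every array. Like Cyp4p3, they were too low to show whether they shared the rise of Cyp4e2. Around Cyp4g15, which has no P450 neighbour, HP5, CG43155 and Spase25 differed by log2 values of 0.02, -0.09 and 0.07, each with overlapping groups.

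Cyp6a17 sits in the longest run, 9 genes from Cyp6a22 to Cyp317a1. The other 8 had overlapping groups, with log2 differences from -0.16 to 0.24 without the filter. Several of them had low signals, where the pseudocount of 16 keeps differences small. The nearest on each side were Cyp6a22, at 15.8 ± 4.89 in RasV12 and 18.3 ± 5.57 in sSpi, and Cyp6a23, at 12.4 ± 4.69 and 8.14 ± 4.35 (SD, n = 3). Cyp6a8 was the only 1 of these 8 to pass the signal filter, at 32.2 ± 7.11 and 32.7 ± 6.66. Cyp6a20, which affects male aggression, stayed under 5 on all 6 arrays. Members of such runs can be near copies of each other, and probe sequences were not used here, so cross-hybridisation within a run was not tested.

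**Figure D3:**
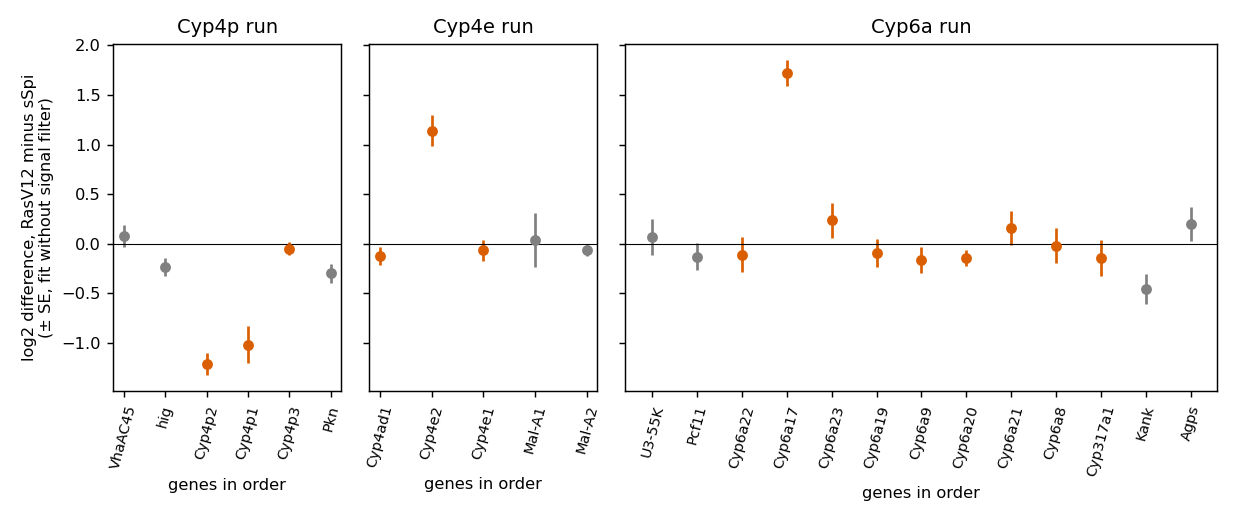
Log2 difference, RasV12 minus sSpi, with its standard error, from the fit without a signal filter, for the genes of the runs that hold Cyp4p2, Cyp4e2 and Cyp6a17 and for up to 2 genes on each side that have a probe set. Orange points are P450 genes and grey points are other genes, in chromosome order and not to scale. Cyp4p2 and Cyp4p1 lie at -1.22 and -1.02, Cyp4e2 at 1.14 and Cyp6a17 at 1.72, while the other P450 genes of these runs lie between -0.16 and 0.24.

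The other 17 tested probe sets, of 16 genes, did not pass, with log2 differences from -0.83 to 0.35. Among them, 4, or 23.5%, had groups that did not overlap, a share near the 21.3% of all probe sets tested, and with 3 arrays against 3 an exact two-sided permutation test cannot give a p below 0.1. Cyp9c1, of the CYP3 clan, measured 61.5, 58.4 and 45.6 in RasV12 and 68.4, 97.3 and 111 in sSpi, or -0.59 ± 0.17 in log2 (SE, limma adjusted p = 0.13, n = 3). Every sSpi value was above the RasV12 values, but sSpi replicate 1 only just. Cyp6d2 and Cyp6a16 were higher on every RasV12 array, at 34.9 ± 3.35 against 24.1 ± 3.60 and at 67.9 ± 9.59 against 53.7 ± 2.89, and neither passed (limma adjusted p = 0.31 and 0.39).

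Cyp18a1, the enzyme that inactivates ecdysone and its active form by hydroxylation, was the 1 tested member of the CYP2 clan. Its signals were 19.0, 31.3 and 28.3 in RasV12 and 52.5, 38.0 and 41.1 in sSpi. All RasV12 arrays were below all sSpi arrays, and RasV12 replicate 1 was the lowest. The log2 difference was -0.51 ± 0.17 and did not pass (limma adjusted p = 0.18, n = 3), in the main analysis or in 15 of 15 other settings.

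The other tested members of high signal overlapped between genotypes. Cyp6u1 gave 60.4 ± 10.3 for RasV12 against 72.3 ± 5.59 for sSpi (SD, n = 3), and Cyp6d4 lay between 48.4 and 57.6 in RasV12 and between 55.5 and 79.5 in sSpi. Of the 2 probe sets of Cyp9f2, the brighter gave a log2 difference of -0.05 ± 0.16 and the dimmer gave 0.28 ± 0.16, opposite in sign and both short of the threshold (limma adjusted p = 0.91 and 0.45). The 4 tested mitochondrial genes, Cyp12b2, Cyp12a4, Cyp12e1 and Cyp301a1, differed by log2 values between -0.02 and 0.09. Cyp12a4, which confers resistance to the insecticide lufenuron when overexpressed, measured 43.3 ± 2.63 and 42.8 ± 3.31. Cyp6g2, which acts in the gland that makes juvenile hormone, measured 44.4 ± 2.66 and 39.6 ± 12.9, with sSpi replicate 1 at 25.2 the lowest array.

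**Figure D4:**
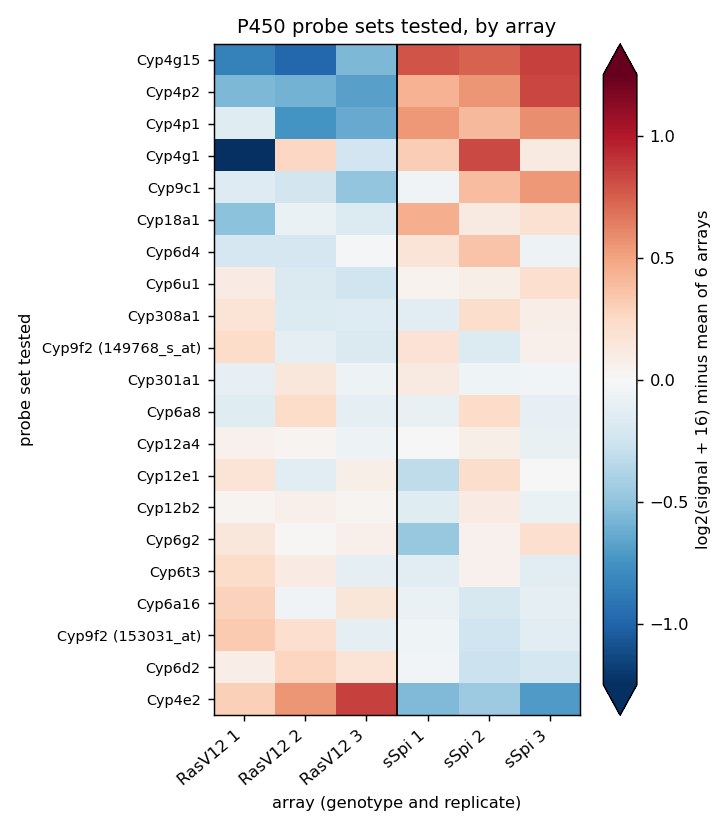
Deviation of log2(signal + 16) from the mean of 6 arrays for the 21 tested P450 probe sets, rows ordered by the difference between genotypes and columns by array. Cyp4g15, Cyp4p2 and Cyp4p1 are below their mean on the 3 RasV12 arrays, Cyp4e2 is above it there, and the dark cell of Cyp4g1 is RasV12 replicate 1, at a signal of 1.84.

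By clan, all 4 calls were in the CYP4 clan, or 80% of its 5 tested probe sets, beside 2.61% of all probe sets tested. Of these 5, Cyp4g15 (means of 8.74 in RasV12 and 58.0 in sSpi) and Cyp4g1 (19.3 and 42.6) passed the filter, at 23.4, only through their sSpi means. Cyp6a17 of the CYP3 clan, at a mean of 23.2, fell just under it. The shares of tested probe sets by clan therefore depend on the filter. None of the 11 tested in the CYP3 clan, 4 in the mitochondrial clan and 1 in the CYP2 clan passed. An unadjusted p under 0.05 was found for 2, 0 and 1 of these (limma), beside 15.2% of all probe sets tested. The difference between clans was not tested. In the CYP4 clan 33 probe sets of 32 genes were on the array, with mean signals from 0.765 to 417, so most of it was below the filter. Without the filter 9.09% of the 33 were called, and 2.56% of the 39 in the CYP3 clan, beside 0.988% of all probe sets. Within the subfamily Cyp4d, 6 genes had mean signals from 1.91 to 22.0 and none was tested. Cyp4d2 was uneven within RasV12, at 41.8, 4.08 and 8.73 in RasV12 and 22.7, 18.2 and 36.8 in sSpi. Cyp4d21, which is active in the male fat body and affects mating, measured 4.17 to 6.69 in RasV12 and 7.94 to 10.2 in sSpi, lower on every RasV12 array but not past the threshold (-0.23, limma adjusted p = 0.35).

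Of the 64 probe sets below the filter, 63 did not pass in the fit without a filter, and after Cyp6a17 the differences ranged from -0.44 to 0.32. Groups did not overlap for 9 of the 64, or 14.1%, against 17.4% of all 13966 probe sets. Cyp313a1 measured 2.51, 1.92 and 2.76 in RasV12 and 14.0, 6.49 and 7.03 in sSpi (log2 difference -0.44, limma adjusted p = 0.18). Cyp311a1 measured 4.52, 6.27 and 11.4 in RasV12 and 3.45, 3.10 and 2.04 in sSpi, and Cyp6t1 measured 10.5, 3.21 and 3.30 against 2.18, 2.08 and 2.36. Most of these signals were under the lower quartile of their array, and the highest of each gene stood at percentiles 32.4, 30.1 and 27.6 in turn. None of the 3 genes passed in 13 further settings. Of genes known from insecticide or drug responses, Cyp6g1, whose overexpression gives resistance to DDT, measured 3.26 to 10.3 over the 6 arrays. Cyp6a2 measured 2.20 to 4.19. Such genes were not all low, since Cyp12a4, described above for lufenuron resistance, passed the filter at a mean of 43.1. Cyp303a1, needed for sensory organ development, reached 22.4 in RasV12 replicate 1 and measured 4.28 to 7.91 on the other 5 arrays. Cyp310a1 likewise was highest in RasV12 replicate 1, at 28.7 against 6.66 to 18.4 elsewhere.

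Genes that work with P450 enzymes were read from the same analysis. Across the 6 lists of such genes 1 of 34 tested passed, or 2.94%, near the 2.61% of all probe sets tested, and 10 of the 34 had an unadjusted p under 0.05, or 29.4%, beside 15.2%. The 34 include the P450 members Cyp18a1, Cyp6t3, Cyp6g2 and Cyp4g1. Electron donors did not pass in either direction, 0 of 4 tested (limma, 1 with an unadjusted p under 0.05), with a median difference of 0.13. The list held 6 genes, and the reductase gene Cpr and dare had no probe set annotated to exactly 1 gene. The reductase was therefore not measured here. The cytochrome b5 gene Cyt-b5 differed by 0.13 ± 0.10 in log2 and the ferredoxin gene Fdx2 by -0.27 ± 0.11 (limma adjusted p = 0.57 and 0.29, n = 3). In the list of haem synthesis and breakdown, 0 of 7 tested genes passed, with differences from -0.21 to 0.07 and none at an unadjusted p under 0.05. All 7 act in synthesis. The haem oxygenase gene Ho had no probe set annotated to exactly 1 gene, so haem breakdown was not measured. Ppox and Pbgs, 2 enzymes of haem synthesis, had the smallest p, at log2 differences of -0.21 ± 0.14 and -0.17 ± 0.11.

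In hydrocarbon synthesis 1 of 6 tested genes was called higher in RasV12 and none lower (limma, 2 with an unadjusted p under 0.05). Differences ran from -0.83 for Cyp4g1 to 0.90, with a median of -0.05. FASN1, a fatty acid synthase, measured 423, 351 and 339 in RasV12 and 198, 188 and 187 in sSpi, with a wide gap between the groups, and RasV12 was higher by 0.90 ± 0.11 in log2 (SE, limma adjusted p = 0.0036, n = 3). The list's other members did not pass, among them the acetyl-CoA carboxylase gene ACC at -0.09 ± 0.12 and the desaturase gene Desat1 at 0.27 ± 0.16.

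For ecdysone synthesis and turnover, 0 of 8 tested genes passed (limma, 4 with an unadjusted p under 0.05), with a median of 0.30. Start1, thought to carry sterols, came nearest, at 259 ± 42.9 for RasV12 against 171 ± 10.7 for sSpi, or 0.54 ± 0.13 in log2 (limma adjusted p = 0.067, n = 3). The mitochondrial P450 gene sad measured 130, 239 and 249 in RasV12 and 110, 149 and 97.5 in sSpi, with RasV12 replicate 1 inside the sSpi range (limma adjusted p = 0.18). The P450 gene phtm measured 266 ± 7.48 and 264 ± 68.0, and shd, whose enzyme turns ecdysone into its active form in target tissues, stayed between 8.52 and 21.0 on all arrays and below the filter. Of the prothoracic gland markers, sro was higher on every RasV12 array, at 60.5, 68.2 and 50.9 against 43.6, 42.6 and 36.2 in sSpi, and did not pass (log2 difference 0.41 ± 0.14, limma adjusted p = 0.19), while dib overlapped, at 4.44 to 39.5 over the 6 arrays. The summed signal of the 4 gland markers was 456 to 607 in RasV12 and 329 to 536 in sSpi. The part of gland RNA in these values was not tested.

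Of the regulators of detoxification genes, 0 of 6 tested passed (limma, 3 with an unadjusted p under 0.05), with a median of 0.18. Keap1, which holds the stress response factor encoded by cnc in check, measured 70.2, 73.3 and 78.8 in RasV12 and 53.8, 40.6 and 49.6 in sSpi, without overlap (log2 difference 0.50 ± 0.13, limma adjusted p = 0.091, n = 3). The transcription factor gene ss measured 119 ± 12.9 and 86.5 ± 17.8 (adjusted p = 0.23). In juvenile hormone synthesis and turnover 0 of 3 passed, with none at an unadjusted p under 0.05. The epoxide hydrolase gene Jheh2 and Cyp6g2 had the smallest p, at differences of 0.14 ± 0.14 and 0.15 ± 0.18.

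**Figure D5:**
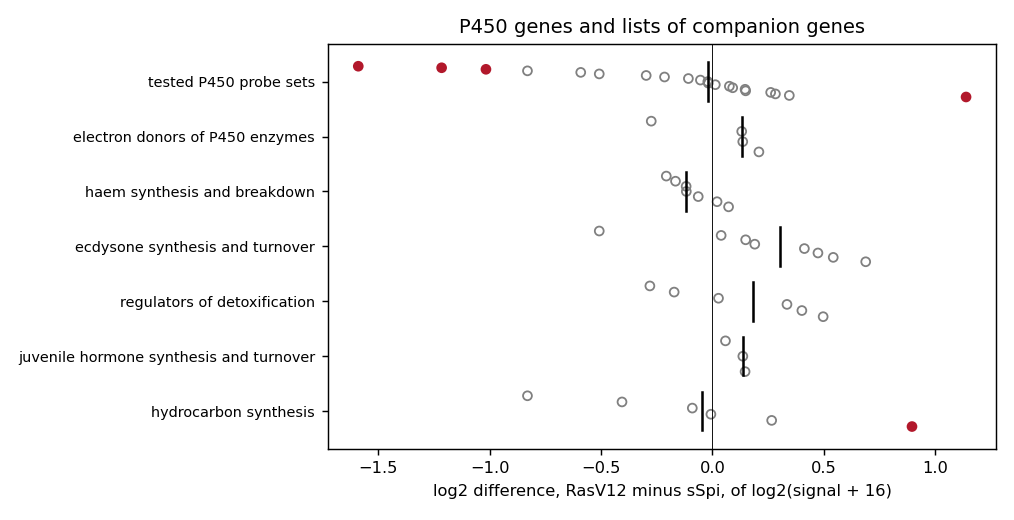
Log2 difference, RasV12 minus sSpi, of each tested P450 probe set and each tested gene of the 6 companion lists (1 probe set per gene). Filled red points passed an adjusted p of 0.05, open points did not, and black bars are medians. FASN1, at 0.90, is the 1 companion gene that passed.

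Fat body expresses many P450 genes and can adhere to dissected discs. Its 5 markers with a probe set had a summed signal of 98.1 to 118 in RasV12 and 111, 114 and 277 in sSpi, where the high value was sSpi replicate 1, with Fbp1 at 98.1 and Lsp2 at 137. Salivary gland glue genes were highest in sSpi replicate 2, at a sum of 805 against 98.0 to 191 on the other arrays. Without sSpi replicate 1, Cyp4p2, Cyp4g15 and Cyp4e2 differed by -1.30, -1.59 and 1.15, and without sSpi replicate 2 the first 2 differed by -1.24 and -1.62, and all 3 passed in both cases. The corresponding values of Cyp6a17 without the filter were 1.65 and 1.80, and it passed as well. Cyp4p1 lost its call in both cases, at -0.999 and -1.07 (limma adjusted p = 0.0693 and 0.057). The part of fat body or salivary gland RNA in the P450 differences was not tested.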

How the data were processed

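RNA of 6 samples, 3 per genotype, was measured on Affymetrix arrays from 5 ug of total RNA each. The deposited values are linear intensities with 1 number for each probe set. The submitters' processing notes name MAS5, without a version, and the trimmed mean of each array, 2% off each end, was 99.4. The 14010 probe sets included 44 controls, left out, and 0 columns were unmatched. Of the rest, 12443 had 1 gene symbol, 327 several and 1196 none, by the platform's annotation. Symbols were brought up to date by gene identifier with the RefSeq table of Release 6 plus ISO1 MT, used for names and gene order only.

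Log2(signal + 16) of the upper 60% of probe sets was fitted with lmFit and eBayes with a trend in limma 3.58.1 under R 4.3.3, and p-values were adjusted by Benjamini-Hochberg over all 8380 probe sets at a threshold of 0.05. The fit was tested on simulated data. Replicates are biological by title, and the number of arrays limits the precision. Arrays that share a replicate number did not deviate together (correlations of -0.11, -0.04 and -0.14), so they were treated as unpaired. A gene of a list was represented by its probe set of highest mean signal.

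Members, lists, naming rule and tests were chosen with earlier results of these data known. Named are members past the threshold, up to 12 tested members whose groups do not overlap, the 8 of highest signal, 4 members below the filter, and of each list up to 3 genes past the threshold or the 2 of smallest p; other genes were named after their values were seen. Alternatives were pseudocounts of 1 and 64, no filter, the upper 40%, quantile and median scaling, no trend, the replicate block, arrays left out and 1 probe set per gene. Figures used matplotlib 3.10.9 under Python 3.11.15.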

Additional observations from a re-analysis of the deposited data

How the results depend on the processing

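The count of probe sets called over the whole table, 219, was 138 without the signal filter and ranged from 86 to 369 with single arrays left out. With 1 array left out the P450 genes called higher stayed at 1 and those called lower were 2 or 3. Without the filter 2 P450 genes were called higher, since Cyp6a17 entered, and 2 lower, since Cyp4p1 missed the threshold. In the upper 40% of probe sets 1 was called lower, since Cyp4p1 and Cyp4g15 were not tested there. With the replicate block 159 probe sets were called and the P450 counts stayed at 1 and 3, with Cyp4p2 at -1.22, Cyp4e2 at 1.14, Cyp4p1 at -1.02 and Cyp4g15 at -1.59; the block changed no call of the 16 named P450 genes, nor those of FASN1 and Gli, but ended those of the markers ey (limma adjusted p = 0.12) and NimC1 (0.12, without the filter). Settings for these list genes were added after the data were seen. Of 16 named P450 genes, 14 kept their direction and side of the threshold in every setting run. The exceptions were Cyp4p1, lost in 5 of 15 settings, and the brighter probe set of Cyp9f2, at -0.05, which reversed to 0.0239 without RasV12 replicate 3 and to 0.0246 without sSpi replicate 1, and ranged from -0.28 to 0.0246 with arrays left out; the cause was not tested. No detection calls were used, so a signal under the lower quartile of its array shows no more than that it was low.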
